A study of Schizosaccharomyces pombe 972h- with 4 samples.

Results

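This comparison set a fission yeast (Schizosaccharomyces pombe) strain lacking Ofd2, here called Ofd2Δ, against wild type after 90 min of hypoxia. It used the hypoxia arrays of both strains, which are 2 of the 4 samples of the series. The other 2 samples were the same strains kept at normal oxygen, and they served as the background for the strain difference. Both strains were grown at 30 °C to exponential phase in rich medium with 2% glucose and added amino acids and bases, the hypoxia cultures were held below 1% oxygen, and the normal oxygen cultures were held at 20% oxygen. Each array took RNA pooled from 2 experiments. There was therefore 1 array per condition, no spread between cultures could be measured, and no test was possible. The Ofd2Δ strain carries the deletion of SPAP8A3.02c in both oxygen conditions.

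Ofd2 belongs to the dioxygenases that use Fe(II) and 2-oxoglutarate, a family whose members consume molecular oxygen as they hydroxylate or demethylate their substrates. Oxygen is also the electron acceptor of the respiratory chain and a substrate of the sterol and heme pathways, and fission yeast adjusts the genes of these pathways when oxygen falls. In sterol-poor hypoxic cells the transcription factor Sre1 is released from the membrane by proteolysis and raises sterol genes. Iron links these processes, because the dioxygenases, the cytochromes and several sterol enzymes all carry it.

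Levels of 4997 transcript targets could be taken from 2 sources, the probe signals of each array and a table of the study's own normalised values. Each target had 7 probes in each of 2 blocks of the array, so 14 spots in all. Levels are normalised intensities on a linear scale and serve to compare arrays for 1 target, not targets with each other. A ratio is the level in Ofd2Δ over that in wild type, averaged over both blocks, and a ratio of 1 means equal levels. Of the 4997 targets, 1646 could be given a gene name here, and every gene list below counts named targets only. No target carried the name of the deleted gene, which left the strain label without that check.

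The Ofd2Δ hypoxia array stood apart from the other 3 in the raw signal. Its median gene spot was 4009, against 6597 to 7529 on the other arrays. Its random control spots (median 112) were nevertheless near those of the others (122 to 126). It held no spot at or above 65000, where the others held 77 to 97, and its spots spanned a narrower range (interquartile range 1.71 on the log2 scale against 2.12 to 2.22). It was also read out on a separate occasion from the other 3. The scan and the condition cannot be told apart for this array.

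The 2 sources agreed closely on 3 of the arrays and less closely on the Ofd2Δ hypoxia array. Across the 4997 targets, log2 levels in the study's table and from the probes had r = 0.998 for each of the other 3 arrays and r = 0.986 for Ofd2Δ in hypoxia. For the strain log2 ratio the difference was wider, with r = 0.40 between the sources in hypoxia against 0.94 at normal oxygen. The table's levels for hypoxic Ofd2Δ had r = 0.990 with the probe levels of hypoxic wild type. That was above the 0.986 with the probe levels of their own array, and the reason was not tested. Genes are not independent replicates, and these values are descriptions. A strain difference in hypoxia is therefore read below only where both sources put it on the same side of 1. Both sources divide by the same wild-type hypoxia array of pooled RNA. A deviation of that array can move both ratios, and all their blocks, the same way, so this agreement is not replication. A point cloud with little tilt in the plot of both sources shows the weak agreement of the hypoxia ratios gene by gene.

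**Figure D1:**
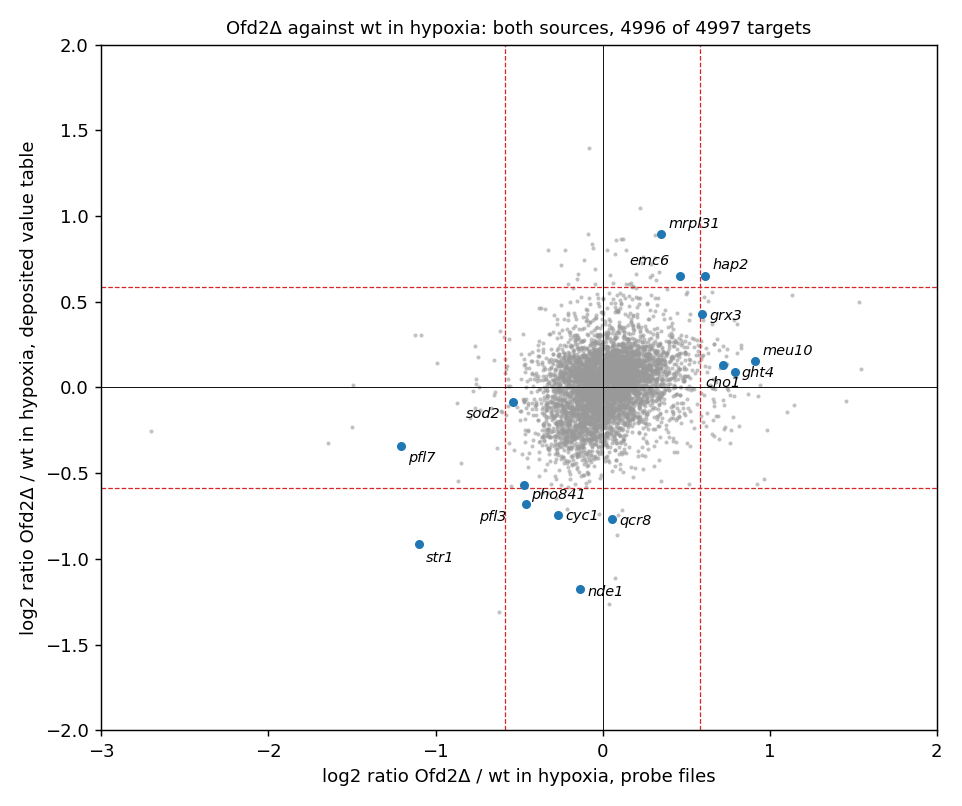
Strain ratio in hypoxia for 4996 of 4997 targets, as log2 of Ofd2Δ over wild type from the probe signals (x axis) and from the study's value table (y axis); dashed lines mark 1.5-fold, and 1 target lies off the axes. Most targets past 1.5-fold in 1 source lie inside the lines in the other, and str1 at the lower left and hap2 at the upper right are the named genes past the lines in both.

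At 1.5-fold the probes alone placed 80 targets higher in hypoxic Ofd2Δ (1.6% of targets) and 33 lower (0.66%). The value table alone placed 40 higher (0.8%) and 17 lower (0.34%). Far fewer targets met the same fold at normal oxygen, with 4 higher (0.08%) and 11 lower (0.22%) by probes and 3 higher (0.06%) and 11 lower (0.22%) in the table. Of the 80 targets called higher by probes, 38 lay below 1 in the value table, and of the 33 called lower, 13 lay above 1. Both sources together left 1 target higher (0.02%) and 3 lower (0.06%).

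The lowered gene with a name was str1, a siderophore-iron transporter of the plasma membrane. str1 had its name only through the study's tables of hypoxia-responsive genes, which were drawn from these arrays. The study had also picked str1 on these samples for a stronger fall in Ofd2Δ. Its probe level was 31339 in wild type and 29865 in Ofd2Δ at normal oxygen, 18289 in wild type in hypoxia and 8527 in Ofd2Δ in hypoxia. Both strains had less str1 in hypoxia than at normal oxygen, and hypoxic Ofd2Δ had the least. The hypoxia ratio was 0.467 by probes, with 0.491 in block 1 and 0.442 in block 2, and 0.531 in the value table. All 14 probes of str1 were lower in Ofd2Δ, while its ratio at normal oxygen was 0.953.

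hap2 was the raised target, and the target table describes its product only as a hypothetical protein. Its probe level was 4289 in wild type and 4681 in Ofd2Δ at normal oxygen, and 4796 in wild type and 7319 in Ofd2Δ in hypoxia. The value table gave 3510, 3747, 4131 and 6446 in the same order. Hypoxic Ofd2Δ was the highest array in both sources, and the other 3 arrays lay close together. The ratio of hap2 in hypoxia was 1.53 by probes and 1.57 in the table, with 12 of 14 probes higher, against 1.09 by probes at normal oxygen. The probe ratio of hap2 was 1.48 with quantile normalisation over the hypoxia arrays alone and 1.40 with the mean of probes, both under 1.5-fold.

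The other 2 lowered targets had no name and were already low in Ofd2Δ at normal oxygen. Target TI4896S001969 read 7056 in wild type and 4276 in Ofd2Δ at normal oxygen, and 8770 and 5696 in hypoxia. Its ratio was 0.650 by probes and 0.402 in the value table in hypoxia, and 0.606 and 0.571 at normal oxygen. The strain difference of this target was therefore present at both oxygen levels.

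Target TI4896S004938 was at the level of the random control spots in both Ofd2Δ arrays. Its raw median spot was 8512 in wild type at normal oxygen and 4409 in wild type in hypoxia. It was 115 and 105 in the corresponding Ofd2Δ arrays, where the random control spots had medians of 122 and 112. All 14 of its probes were lower in hypoxic Ofd2Δ. The sources differed on its change in wild type from normal oxygen to hypoxia. Normalised probe levels went from 6376 down to 3769, and levels in the value table from 5406 up to 9396. In Ofd2Δ the table gave 21 at normal oxygen and 14.1 in hypoxia. No fold is given against a level at background, and the tables used here pair this target with no gene.

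A milder threshold, chosen after the values were seen, asked for 1.3-fold in both sources with all 4 block ratios (both blocks of both sources) on 1 side of 1. All 4 block ratios were above 1 at 758 targets (15.2%) and below 1 at 739 (14.8%). With the fold added, the rule left 17 targets higher (0.34%) and 15 lower (0.3%). The raised targets were mostly dim, as 13 of the 17 lay in the lowest 25% of level, and 8 of the 15 lowered ones lay in the highest 25%. Their median probe ratio at normal oxygen was 1.05 for the raised and 0.953 for the lowered targets. The rule did not correct for level. With the level trend described below removed, some lowered targets missed 1.3-fold in the table, such as sec26 (0.852) and esf1 (0.861). Some raised ones missed it by probes, such as SPCC594.03 (1.23).

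Neither membrane transporters nor cell wall genes moved one way as a group. Of 45 named membrane transporters, 11 had all 4 block ratios below 1 and 7 above, and of 18 cell wall genes and glycosyl hydrolases 4 had them below and 3 above. pho841, a phosphate transporter, read 20643 in wild type and 19550 in Ofd2Δ at normal oxygen, and 19283 and 13906 in hypoxia. Only hypoxic Ofd2Δ was low, with a ratio of 0.721 by probes and 0.675 in the table, and 0.739 and 0.762 with the level trend removed. pfl3, a flocculin-like surface glycoprotein, read 12628 and 12340 at normal oxygen, and 16707 in wild type and 12161 in Ofd2Δ in hypoxia. Here wild type in hypoxia was the high array and the other 3 were alike by probes, with a ratio of 0.728 and all 14 probes lower. The value table gave pfl3 levels of 11776, 11376, 15639 and 9704 in the same order, so that hypoxic Ofd2Δ was also below both normal oxygen arrays, and a ratio of 0.623. Its relative pfl7 had a larger difference by probes (ratio 0.434, from 2086 in wild type to 900 in Ofd2Δ) than in the table (0.789). meu26, a gene induced in meiosis, had ratios of 0.548 and 0.686 in hypoxia but was also below 1 at normal oxygen (0.772).

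Further genes below 1 had metabolic roles. gdh2, a glutamate dehydrogenase named after its values were seen, read 7151 and 6777 at normal oxygen and 7665 and 5649 in hypoxia in wild type and Ofd2Δ. Hypoxic Ofd2Δ was again the lowest array, with ratios of 0.738 and 0.768. SPCC1840.06c, an ATP synthase subunit, fell in hypoxia in both strains, from 7042 to 3748 in wild type and from 6770 to 2875 in Ofd2Δ. Its ratio was 0.767 by probes and 0.748 in the table, and 9 of its 14 probes were lower in Ofd2Δ.

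Of the named genes above 1 in all 4 block ratios, rpc37, a subunit of RNA polymerase III, read 7370 and 7110 at normal oxygen in wild type and Ofd2Δ, and 6175 and 8196 in hypoxia. Its ratios were 1.33 by probes and 1.3 in the table. emc6, a component of the endoplasmic reticulum membrane complex that was named after its values were seen, read 4777, 4654, 4723 and 6502 in wild type and Ofd2Δ at normal oxygen and then in hypoxia. The first 3 of its levels were nearly equal and its ratios were 1.38 and 1.57. grx3, a glutaredoxin, and urh1, a nucleoside hydrolase, were dim, with probe levels of 1143 and 2367 in hypoxic wild type. Their ratios were 1.51 by probes and 1.34 in the table for grx3, and 1.58 and 1.29 for urh1.

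**Figure D2:**
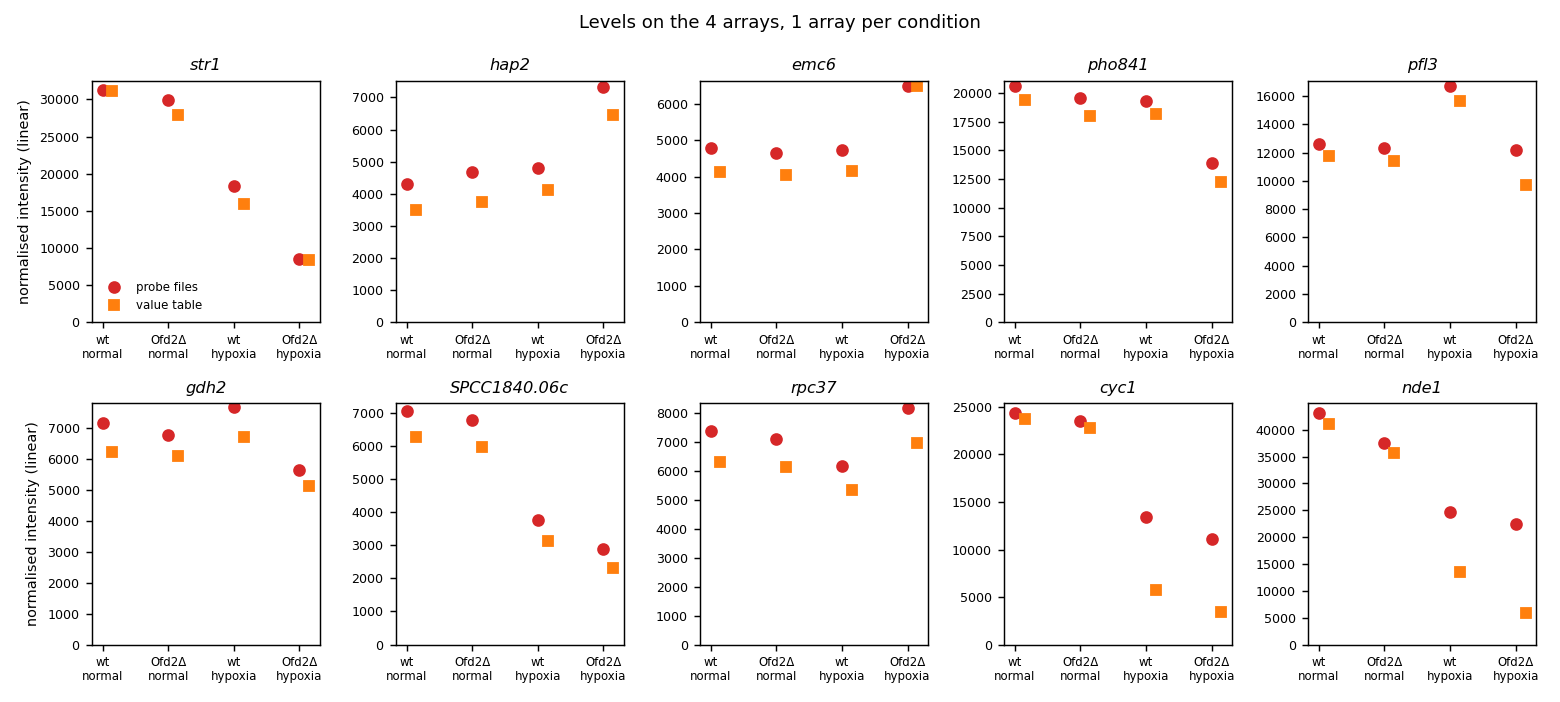
Normalised intensity (linear, axes from 0) on each of the 4 arrays for 10 genes, from the probe signals (circles) and the value table (squares), with 1 array per condition and no error bars. For str1, hap2, emc6 and pho841 both sources place hypoxic Ofd2Δ at the end of the range, whereas for cyc1 and nde1 they differ on both hypoxia arrays.

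Other large ratios were seen in 1 source only. Target TI4896S003501 had the highest probe ratio of all, at 2.92 with all 14 probes higher, and 1.08 in the value table. ght4, a hexose transporter, read 4596 in wild type and 7940 in Ofd2Δ in hypoxia by probes, a ratio of 1.73, but 4028 and 4283 in the table, a ratio of 1.07. cho1, an enzyme of phospholipid synthesis, gave 1.65 and 1.10. In the opposite case, nde1, the external NADH dehydrogenase of mitochondria, gave 0.910 by probes and 0.443 in the table.

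The strain ratio in hypoxia also moved with the level of the target. Over 10 groups of targets ordered by level, the median ratio ran from 1.08 in the dimmest to 0.966 in the brightest by probes, and from 1.04 to 0.866 in the value table. At normal oxygen the group medians lay between 1.00 and 1.01 by probes. Of the 80 targets called higher by probes, 40 were in the dimmest group. Lists made up of bright or dim genes are therefore given below with a value after a running median over level was subtracted.

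**Figure D3:**
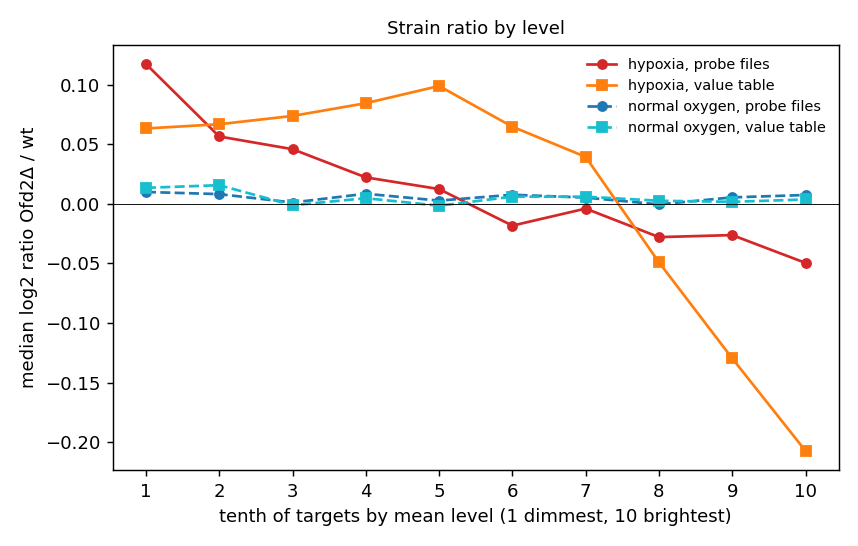
Median log2 ratio of Ofd2Δ over wild type in 10 groups of 499 or 500 targets ordered by mean level, for hypoxia (solid lines) and normal oxygen (dashed lines) in both sources. The hypoxia lines go from above 0 in dim targets to below 0 in bright ones, and the normal oxygen lines stay near 0.

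Of 30 gene lists, 13 had a median ratio below 1 in both sources, 7 above 1 in both and 10 on opposite sides. With the level trend removed, 9 of the 13 and 5 of the 7 kept their side in both sources. Among both the 13 and the 9 was the study's own list of genes that differed by 1.5-fold, which was chosen on these samples. For reference, 27.5% of all targets were below 1 in both sources and 32.5% above, and the medians over all targets were 1.00 by probes and 1.01 in the table. The lists had 2 to 96 named members and no spread between cultures stands behind them.

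**Figure D4:**
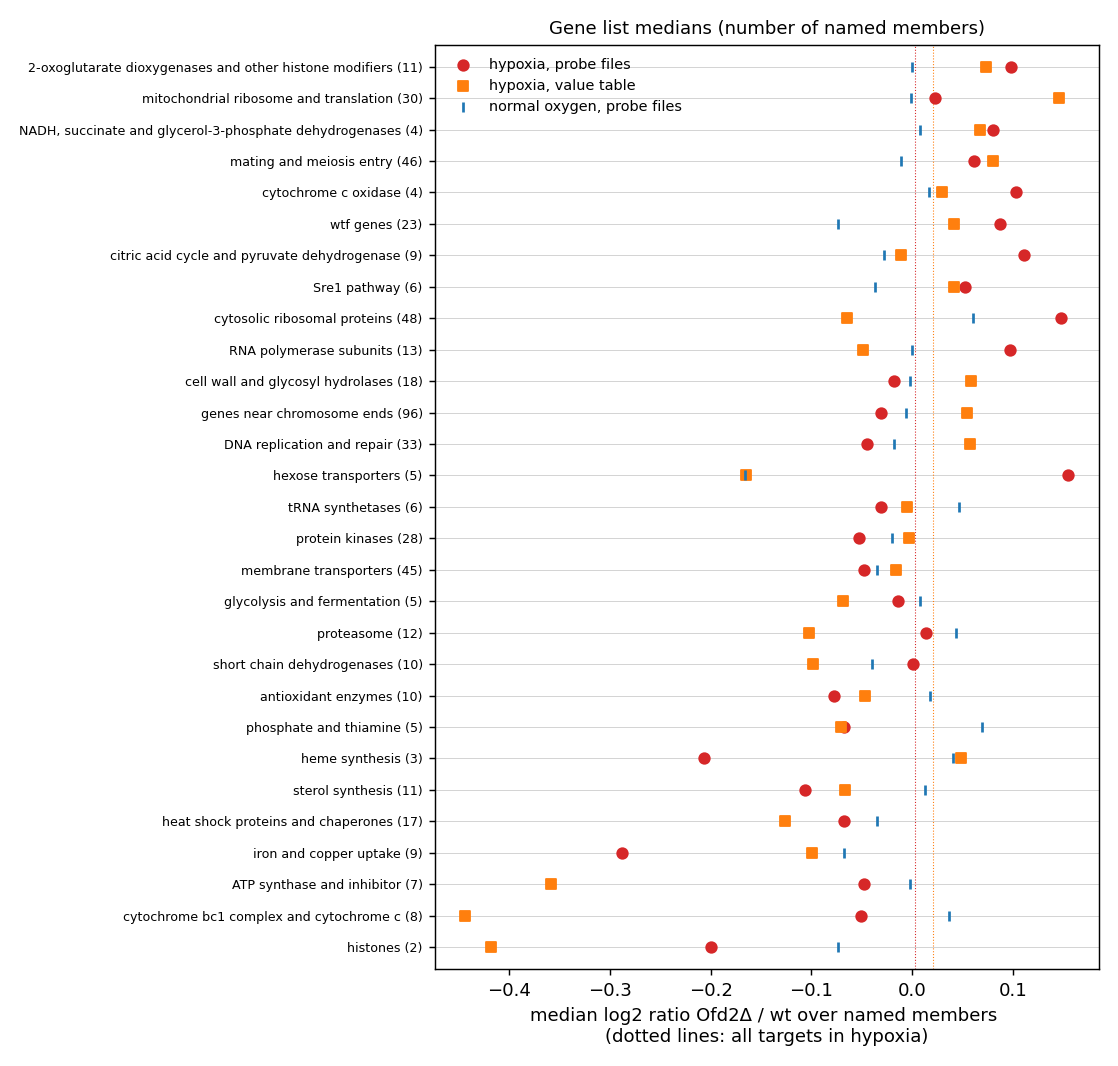
Median log2 ratio of Ofd2Δ over wild type over the named members of 29 gene lists (number of members in parentheses), in hypoxia from the probe signals (circles) and the value table (squares) and at normal oxygen from the probe signals (ticks); dotted lines mark the medians over all targets in hypoxia. Iron and copper uptake, cytochrome bc1, ATP synthase and histones lie left of 0 in both sources, by amounts that differ between the sources, and the probe median of ATP synthase is above 1 (1.07) when arrays are scaled to equal medians.

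Genes of iron and copper uptake had a median below 1 in both sources. Of the 9 named members, 7 (77.8%) were below 1 in both sources and 1 was above. The median ratio was 0.819 by probes and 0.934 in the table, against 0.954 and 0.960 at normal oxygen, and it was 0.823 and 0.915 with the level trend removed. Without str1, the 1 member named only through the study's hypoxia tables, it was 0.868 and 0.949. After str1 the clearest member was fet4, a low-affinity iron permease, which read 4669 and 4865 at normal oxygen and 5798 and 4196 in hypoxia in wild type and Ofd2Δ, with ratios of 0.724 and 0.880. abc3, a vacuolar transporter of the ABC family, had ratios of 0.727 and 0.922. php4, a regulatory subunit that represses iron-using genes when iron is scarce, had 0.819 and 0.964. frp1, a ferric reductase, was below 1 by probes only (0.676 and 1.01). abc3, php4 and frp1 were chosen after their values were seen. ctr4, a copper transporter, was the member above 1, at 1.35 by probes and 1.06 in the table.

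Respiratory chain genes did not move as one group. For the cytochrome bc1 complex and cytochrome c, 5 of 8 named members were below 1 in both sources and 2 above. The list median was 0.965 by probes and 0.736 in the table, and 3 members had all 4 block ratios below 1. Those were cyc1, cytochrome c itself, with ratios of 0.831 and 0.597, qcr2 with 0.864 and 0.611, and qcr7 with 0.843 and 0.861. In contrast, qcr8 gave 1.04 by probes and 0.587 in the table, and qcr9 gave 1.08 and 1.41. Of these, qcr7 had like ratios in both sources, from 7090 in wild type to 5970 in Ofd2Δ by probes and from 6260 to 5390 in the table.

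The ATP synthase list behaved similarly. Of its 7 named members 5 were below 1 in both sources and none above, with a median of 0.968 by probes, 1.07 by probes when arrays were scaled to equal medians, and 0.780 in the table. SPCC1840.06c, described above, atp7 (0.868 and 0.780) and atp3 (0.968 and 0.916, named after its values were seen) had all 4 block ratios below 1. Both blocks gave 0.780 for atp7 in the table, and its probe ratio was 1.03 with arrays scaled to equal medians. atp16 was near 1 by probes (0.984) and 0.60 in the table. In both of these lists 3 members owed their name to the study's tables of hypoxia-responsive genes, which were drawn from these arrays. Without such members the median was 0.864 and 0.801 for the 5 remaining members of the bc1 and cytochrome c list, and 0.935 and 0.915 for the 4 remaining members of the ATP synthase list. The 5 remaining members still held cyc1 and qcr2, which the study had picked on these samples for a stronger fall in Ofd2Δ. That median is therefore not free of selection.

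Of 4 named dehydrogenases that feed electrons into the chain, 3 lay above 1 in both sources and nde1 below, and the list median by probes of 1.06 was 0.980 with arrays scaled to equal medians. sdh3, a membrane anchor of succinate dehydrogenase, had ratios of 1.21 and 1.09, and gut2, the mitochondrial glycerol-3-phosphate dehydrogenase, 1.09 and 1.16, and under that scaling their probe ratios were 0.966 and 0.993. For cytochrome c oxidase, 2 of 4 named members were above 1 in both sources and 1 below. Its members cox5 (1.12 and 1.13) and cox12 (0.867 and 0.928) each had all 4 block ratios on 1 side of 1, but on opposite sides.

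**Figure D5:**
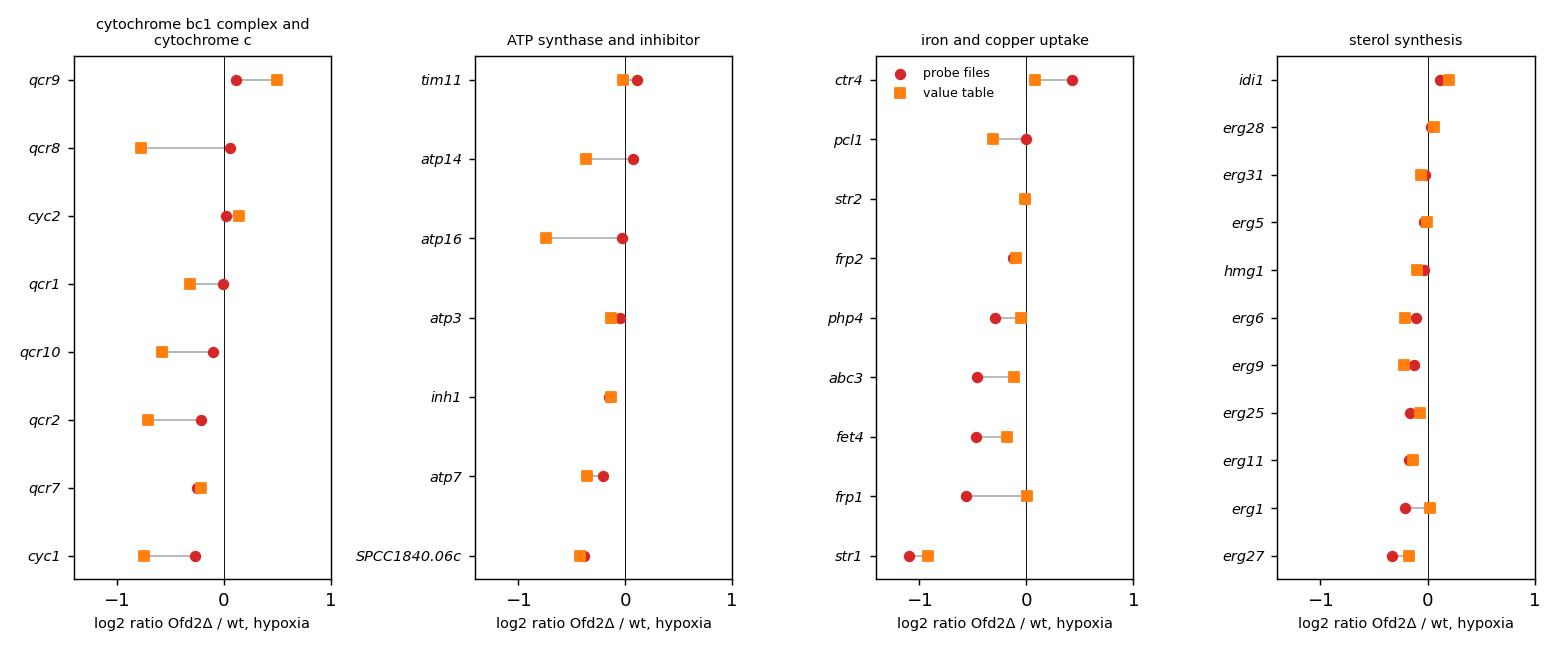
Log2 ratio of Ofd2Δ over wild type in hypoxia for each named member of 4 gene lists, from the probe signals (circles) and the value table (squares), joined by a line per gene. Most members of the sterol list lie close to 0 in both sources, and the line is long for qcr8 and atp16, where the value table alone is far below 0.

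Several respiratory genes differed between the sources on the wild-type hypoxia array as well. cyc1 read 13403 by probes and 5790 in the table in hypoxic wild type, although it read 24323 and 23709 at normal oxygen. nde1 read 24603 and 13425 in hypoxic wild type, and 43028 and 41147 at normal oxygen. After each array was centred on its median, the 2 sources were 1.5-fold or more apart at 2 and 4 targets above the lowest 25% of level on the normal oxygen arrays of wild type and Ofd2Δ, at 14 in hypoxic wild type and at 66 in hypoxic Ofd2Δ. Of those 14 targets 12 were in the study's tables of hypoxia-responsive genes, which hold 69 of the 4997 targets, and of the 66 targets 19 were. Those tables were drawn from the study's own values of these arrays. A displaced hypoxia value can itself put a target in them, so the overlap is partly built in. The cause of the difference between the sources was not tested. Beside this, the study's own list held 8 named genes whose hypoxia response differed by 1.5-fold between the strains. They were cyc1, nde1, atp16, qcr8, qcr10, qcr2, str1 and mef1. Their median ratio between the strains in hypoxia, which is a different measure, was 0.598 in the table and 0.887 by probes. That list was chosen on these samples and is not independent evidence of its direction. str1 and mef1, the mitochondrial elongation factor (0.796 and 0.652), were its members with the lowest probe ratios. Apart from the arrays, the study reported RT-qPCR in which hypoxia lowered cyc1, qcr8 and nde1 more in Ofd2Δ than in wild type. It reported similar results in further strain backgrounds. In a time course, reintroduced Ofd2 reversed the greater fall and an iron-binding mutant of Ofd2 did not. By chromatin immunoprecipitation, the study found Ofd2 enriched near the start of these genes in hypoxia but not at normal oxygen.

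Sterol genes, which Sre1 raises in hypoxia, differed little between the strains with quantile-normalised arrays and in the study's table. Of 11 named members 8 (72.7%) were below 1 in both sources, with a median of 0.929 by probes and 0.955 in the table. These are bright genes, and with the level trend removed the medians were 0.963 and 1.05. Scaling arrays to equal medians instead gave a lower probe median of 0.771. erg27, a keto reductase of sterol synthesis, was the lowest member by probes, with 10304 in wild type and 8140 in Ofd2Δ by probes and ratios of 0.792 and 0.890. erg11, the lanosterol demethylase, had ratios of 0.885 and 0.911, and erg31, a sterol desaturase, 0.981 and 0.958. sre1 itself was at 0.859 and 0.931, and sre2, a related factor, at 1.19 and 1.18. hem13, the oxygen-using coproporphyrinogen oxidase of heme synthesis, was on opposite sides of 1 (0.954 and 1.08).

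Histone genes were measured at 2 named targets, both below 1 in both sources. hta1, which encodes histone H2A, had ratios of 0.939 by probes and 0.710 in the table, and htb1, which encodes H2B, 0.803 and 0.787. Both are bright, and the list medians of 0.871 and 0.749 became 0.903 and 0.859 with the level trend removed. Scaling arrays to equal medians gave a probe median of 0.664. At normal oxygen the probe ratio was 1.01 for hta1 and 0.889 for htb1. The dioxygenases and other histone modifiers lay near 1, with 4 of 11 members above 1 in both sources, none below, and medians of 1.07 and 1.05. clr4, a histone H3 methyltransferase, had ratios of 1.13 and 1.18, and asf1, a histone chaperone, 1.12 and 1.05.

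Genes of phosphate and thiamine supply other than pho841 differed little between the strains. Of 5 named members 4 were below 1 in both sources, with medians of 0.954 and 0.952. pho7, an activator of phosphate genes, had 0.881 and 0.925, and vtc4, which makes polyphosphate, 0.941 and 0.892. The remaining member, tgp1, a transporter of glycerophosphodiesters, was above 1 at 1.01 and 1.14.

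Genes of the mitochondrial ribosome and translation were above 1 in both sources in 12 of 30 cases (40%) and below in 3 (10%). Among all targets these shares were 32.5% and 27.5%. The list medians were 1.02 by probes and 1.11 in the table, and 1.02 and 1.05 with the level trend removed. mrpl33, a ribosomal protein, had ratios of 1.31 and 1.15, while mef1 was the lowest member. Cytosolic ribosomal protein genes were on opposite sides, with medians over 48 members of 1.11 by probes and 0.956 in the table. These are bright genes, and with the level trend removed both medians were above 1, at 1.14 and 1.09, while scaling arrays to equal medians gave 0.879 by probes. Of the 48 members 12 had all 4 block ratios above 1 and 4 below. Hexose transporters were on opposite sides too, at 1.11 and 0.892, and stayed so with the level trend removed (1.09 and 0.932).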

How the data were processed

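RNA of 4 samples was hybridised to 1-colour NimbleGen expression arrays. The authors deposited probe-level intensity for each array, written by NimbleScan 2.4.31 per the file headers, and a table of normalised intensity values for each target and block, for which RMA is named per the labels. Array probes were 60 bases long. The build was not given in the sources used here. From the deposited intensity, an RMA convolution background was subtracted, the 4 arrays were quantile normalised, and median polish then gave 1 log2 value for each target in each block (R 4.3.3, limma 3.58.1). Ratios were the arithmetic mean of both block ratios, computed in Python 3.11.15 with pandas 2.3.3. The code was tested on simulated data. With 1 array per group no test was made, and called means past 1.5-fold. Columns with the authors' own ratios were not used.

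Names came from the study's tables for 1646 targets (44 only through its hypoxia tables), of which 1618 were found in RefSeq and 34 shared a name, and 3351 targets stayed unnamed. Genes named were up to 10 highest and 10 lowest above the 25th percentile of level with all 4 block ratios on 1 side of 1, up to 2 extremes of each list that agreed in both sources, and a few of prior interest. The members and lists were chosen with earlier results of these data known. Alternatives covered scaling, background, probe summary, level filter, block, source and level trend.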

Additional observations from a re-analysis of the deposited data

How the results depend on the processing

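With arrays scaled to equal medians instead of equal quantiles there were 259 targets higher and 103 lower, 17 in both sources (11 higher and 6 lower), and a difference in median log2 ratio between the dimmest and brightest groups of 0.883 against 0.167. Counts were 47 higher with no background correction, 24 higher and 14 lower among targets above the 25th percentile of level, and 40 and 17 in the value table. Block 1 alone gave 56 lower and 8 in both sources (6 higher and 2 lower, where the report has 1 and 3), block 2 alone 50 lower and 7 in both (2 higher and 5 lower), and quantile normalisation over the 2 hypoxia arrays 2 in both sources, none of them higher. The value table as the sole source gives no value for agreement between sources. The number of lists with medians on 1 side in both sources was 18 to 21 under every setting run, against 20. Of 300 alternative list medians, 38 fell on the other side of 1, over 17 of the 30 lists. Of these 38, 13 belonged to lists whose medians lay on 1 side in both sources. These 13 were ATP synthase with median scaling (1.07), the dehydrogenases feeding the chain with median scaling (0.980), the mean of probes (0.987) and block 2 (0.988), the Sre1 pathway with median scaling (0.955), the mean of probes (0.991) and block 1 (0.996), glycolysis with block 2 and with the level trend removed (both 1.03), mitochondrial translation with the mean of probes (0.983), wtf genes above the 25th percentile (0.956) and with block 1 (0.984), and tRNA synthetases with the level trend removed (1.00). Of 107 named genes, 31 crossed 1 under at least 1 setting (53 of 1047 values, 19 of them with median scaling). The 14 of these past 1.5-fold by probes crossed in none of their 133 values, which is no test of stability. These 14 were picked with both sources on 1 side of 1, so the value table could not cross. For those picked as highest or lowest, the block ratios also had to agree, so neither block alone could cross. Targets without a name were not among the 14. The same rules chose most of the 107 genes and limited the count of 31 too. Among the 1047 values, 188 moved by more than the spread between blocks. The cause was not tested. No paired analysis was possible because there was 1 array per group.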

Other observations

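After the values were seen, a list of 30 ribosome biogenesis factors was drawn up, prompted by pwp2, utp21 and esf1 among targets with low ratios, so it carries no test. Of its members 19 (63.3%) were below 1 in both sources and 9 above, against 27.5% and 32.5% of all targets. Genes that prompted the list, such as pwp2, were counted among the 19, which raises that share. Its median ratio in hypoxia was 0.907 by probes and 0.946 in the value table, and 0.923 and 0.974 with the level trend removed. At normal oxygen the medians were 1.03 in both sources. The members with all 4 block ratios below 1 numbered 11 of 30 and those with all 4 above 1 numbered 3. Over all targets these shares were 14.8% and 15.2%. pwp2, a component of the small subunit processome, read 16553 and 17334 at normal oxygen in wild type and Ofd2Δ and 15843 and 10928 in hypoxia, with hypoxic Ofd2Δ the lowest array. Its ratios were 0.691 and 0.776. esf1, also needed for ribosomal RNA processing, had 0.769 in both sources, and 0.783 and 0.861 with the level trend removed. The largest subunit of RNA polymerase II, rpb1, had ratios of 0.842 and 0.759, and rpn8 of the proteasome lid 0.808 and 0.677. Both are bright, and with the level trend removed rpb1 had 0.872 in both sources and rpn8 0.837 and 0.778. aah1, an amylase homologue, had 1.25 and 1.23, and 0.963 by probes with arrays scaled to equal medians. Among coatomer and tRNA modification genes chosen after their values were seen, sec26 had 0.714 and 0.764 and elp2 0.797 and 0.780. With the level trend removed sec26 had 0.726 and 0.852.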
